A study of Arabidopsis thaliana with 36 samples.

Results

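Jasmonate genes were followed through 36 mRNA-seq libraries of Arabidopsis thaliana seedlings, as 10 loci of the 32833 in the count tables, chosen by their locus identifiers: the lipoxygenases LOX2 (AT3G45140), LOX3 (AT1G17420) and LOX4 (AT1G72520), allene oxide synthase AOS (AT5G42650), the allene oxide cyclases AOC1 (AT3G25760) and AOC2 (AT3G25770), the reductase OPR3 (AT2G06050), the repressors JAZ1 (AT1G19180) and JAZ10 (AT5G13220), and the response gene VSP2 (AT5G24770). These 10 loci were chosen with earlier results of these data known, so counts of them set beside the share of all genes are descriptions and carry no test. The series crossed 3 genotypes (phyAB, hy5 and the wild-type accession Col-0), 2 organs (shoot and root) and 2 day temperatures (27 °C and 21 °C), with 3 libraries in each of the 12 groups. Plants of all groups grew under 16 h of light and 8 h of dark, with nights at 21 °C for the 27 °C plants and 15 °C for the 21 °C plants, and were taken as seedlings 6 days after germination. The phyAB plants are double mutants in the red and far-red photoreceptors phytochrome A and phytochrome B, and hy5 plants are mutants in the light-signalling bZIP factor HY5; no source used here states the alleles or how many plants went into a library. The length of the warm treatment is given as 4 h in the series' title and as 3 days in its treatment protocol, so each 27 °C group is named here by temperature alone.

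Jasmonates are lipid hormones made from linolenic acid released from plastid membranes. In the plastid a lipoxygenase adds oxygen, AOS turns the product into an allene oxide, and an AOC closes the ring. In the peroxisome OPR3 reduces that ring before the side chain is shortened. The hormone is joined to isoleucine and is then perceived by COI1 together with JAZ proteins, which are degraded, and this frees MYC transcription factors. JAZ genes and VSP2 are themselves switched on by the hormone, and the pathway is best known in leaves for the response to wounding and insects.

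The 250 bases before the annotated start of AOS, AOC1 and AOC2 are shown. These plastid enzymes were among the 4 genes whose shoot response to 27 °C differed between phyAB and Col-0. The AOS window holds a G-box, and the AOC1 and AOC2 windows share a run of bases. The AOC2 window holds none of the motifs searched for. Coordinates are of TAIR10.1, sequences are from RefSeq and read 5′ to 3′ on the gene's strand. In AOS, chr5:17099596-17099845 on the minus strand, capitals mark the G-box CACGTG, the core bound by MYC, PIF and HY5 proteins, whose first base lies 6 bases before the gene start. In AOC1, chr3:9403529-9403778 on the plus strand, and AOC2, chr3:9406419-9406668 on the plus strand, capitals mark a run of 19 bases that the 2 windows share, at 117 to 99 bases before the AOC1 start and 19 to 1 before the AOC2 start.
AOS: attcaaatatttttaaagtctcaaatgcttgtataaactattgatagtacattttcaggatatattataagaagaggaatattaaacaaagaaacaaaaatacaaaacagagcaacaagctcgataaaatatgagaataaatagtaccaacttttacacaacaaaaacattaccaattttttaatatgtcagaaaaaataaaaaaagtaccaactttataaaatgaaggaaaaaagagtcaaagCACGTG
AOC1: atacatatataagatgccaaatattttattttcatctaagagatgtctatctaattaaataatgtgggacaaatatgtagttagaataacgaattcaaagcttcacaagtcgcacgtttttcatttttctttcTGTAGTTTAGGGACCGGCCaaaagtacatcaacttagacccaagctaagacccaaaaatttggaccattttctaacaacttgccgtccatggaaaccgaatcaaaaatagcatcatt
AOC2: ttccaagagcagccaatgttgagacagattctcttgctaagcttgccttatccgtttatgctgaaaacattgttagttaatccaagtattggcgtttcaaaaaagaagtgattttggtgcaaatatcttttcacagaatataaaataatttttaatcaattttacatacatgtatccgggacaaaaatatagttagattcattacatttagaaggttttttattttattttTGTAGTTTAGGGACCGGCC
AOC1 and AOC2 are neighbours on chromosome 3, at 9403779 to 9405338 and 9406669 to 9408071. A G-box was found in 1 of the 10 jasmonate windows (AOS), against 6.49% of the 27437 windows of the same length searched in the genome. The related T/G-box AACGTG, read on both strands, was found in 2 of the 10, LOX4 at 94 bases and AOC1 at 138 bases before the start, against 7.54% of all windows. The GCC-box GCCGCC, the element of ERF factors, was found in 0 of the 10 and in 1.87% of all windows. These matches describe letters and not binding.

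Counted reads per library ran between 17008543 and 23880472 in shoots and between 14810514 and 24006279 in roots. Levels are counts scaled to a common library size (CPM) with TMM factors, and CPM per kilobase of exon where genes are set against each other. The share of alignments set aside for matching several places was 8.29 to 34.6% in shoots and 5.0 to 10.4% in roots. The shoot libraries numbered 3 at 27 °C had the highest shares, at 28.8% in phyAB, 34.6% in hy5 and 27.8% in Col-0. The next highest shoot library, phyAB replicate 3 at 21 °C, had 16.5%. Results are also given without the 27 °C shoot libraries numbered 3 where that ends a call. Among the targeted genes, HY5 averaged 9.90 ± 1.32 CPM in hy5 roots and 37.9 ± 1.61 CPM in Col-0 roots at 27 °C (SD, n = 3 each). In hy5 shoots it did not pass the test at either temperature (adjusted p = 0.938 at 21 °C and 0.23 at 27 °C). HY5 was also lower in phyAB roots than in Col-0 roots, with log2 changes of −0.998 at 21 °C and −1.38 at 27 °C (edgeR, adjusted p = 2.27e-07 and 5.23e-09). In phyAB shoots HY5 did not pass (adjusted p = 0.0806 and 0.303). PHYA was lower in phyAB in both organs, with log2 changes against Col-0 of −3.06 (21 °C) and −3.20 (27 °C) in roots and −1.95 and −1.74 in shoots. PHYB was lower in phyAB roots (−1.49 and −1.50) and less so in shoots (−0.38 at 21 °C, and −0.17 at 27 °C with an adjusted p of 0.0621). The summed level of 12 shoot markers was 95800 to 145000 CPM in shoots and 36.6 to 642 CPM in roots, and that of 12 root markers was 87.5 to 142 CPM in shoots and 477 to 775 CPM in roots. Both phyAB root libraries numbered 3 carry shoot in one label field and root in their title and tissue fields, and were used as root. Nothing says that the replicates are separate cultures, so p-values measure the spread between these libraries.

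The widest differences in these genes lay between organs. In Col-0 at 21 °C, 9 of the 10 genes were higher in shoots than in roots and 1, JAZ1, was lower, where edgeR called 38.1% of all 21598 genes higher in shoots and 40.5% lower. LOX2, the leaf lipoxygenase of the wound response, had 335, 442 and 404 CPM in Col-0 shoots. Its reads numbered 0 in 12 of the 18 root libraries and at most 4 in any. LOX3 likewise had 15.7 to 20.9 CPM in those shoots and at most 5 reads in any root library. The plastid enzymes AOS, AOC1 and AOC2 were higher in shoots by 3.93 ± 0.14, 6.27 ± 0.30 and 6.22 ± 0.22 on the log2 scale (SE), and LOX4 by 3.83 ± 0.32.

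Per kilobase of exon, the most abundant members in Col-0 shoots at 21 °C were AOC2 at 148, LOX2 at 121 and AOS at 103 CPM per kb, with AOC1 at 25.6, OPR3 at 15.4, JAZ1 at 7.46, LOX3 at 5.77, VSP2 at 4.68, JAZ10 at 2.01 and LOX4 at 1.97. In Col-0 roots at 21 °C the order was different, with JAZ1 at 19.5, OPR3 at 12.2 and AOS at 6.75 CPM per kb and every other member under 2. OPR3, which works in the peroxisome, was the enzyme most alike in the organs. Its direction depends on scaling: it was 0.33 ± 0.09 higher in shoots with TMM factors (adjusted p = 0.00148) and at −0.43 on plain CPM. The TMM factors move the median of all genes in this comparison by 0.76. JAZ1 was lower in shoots on both scales, at −1.38 ± 0.16 with TMM factors (adjusted p = 4.65e-09). The other cyclase genes, AOC3 and AOC4, are named here because AOC1 and AOC2 were near 0 in roots. AOC3 averaged 1.95 ± 0.42 CPM in Col-0 shoots and 33.8 ± 1.33 CPM in Col-0 roots at 21 °C, and AOC4 averaged 31.3 ± 2.80 CPM in shoots and 50.7 ± 1.82 CPM in roots (SD, n = 3 each). Per kilobase AOC4 was the more abundant of this pair in roots, at 37.7 CPM per kb against 20.4 for AOC3. AOC1 shares 24 of its 1142 50-base words with AOC3 and none with AOC2, so no exact stretch of 50 bases fits both AOC1 and AOC2.

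**Figure D1:**
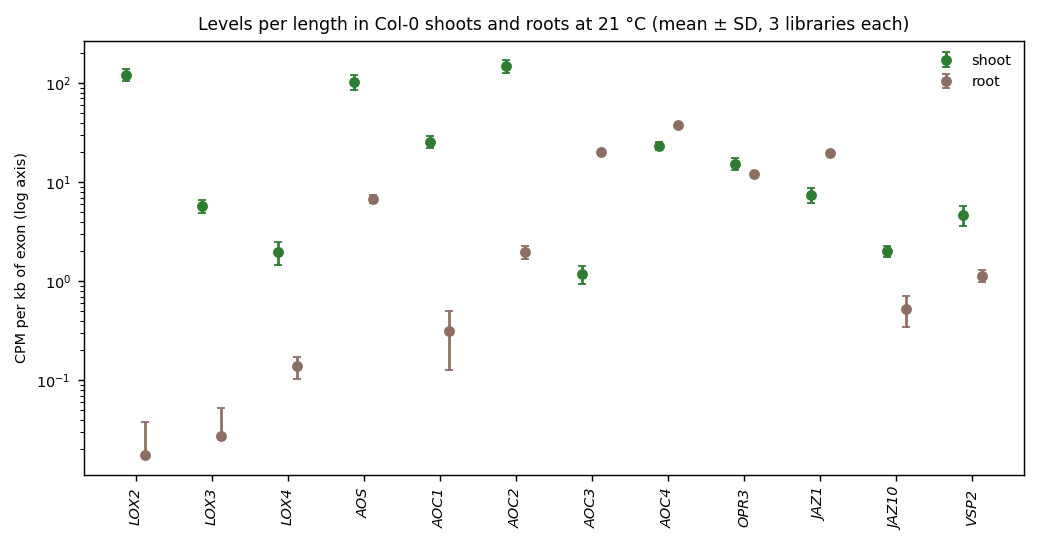
Mean level of the 10 genes and of the cyclase genes AOC3 and AOC4 in Col-0 at 21 °C, in CPM per kilobase of exon on a log axis, for shoots and roots. Points are means and bars are SD over 3 libraries. The lower bar is left out for LOX2 and LOX3 in roots, where the SD is above the mean (LOX2) or close to it (LOX3). JAZ1, AOC3 and AOC4 have the higher point in roots, and OPR3 has the closest pair, 15.4 in shoots and 12.2 in roots.

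At 27 °C the shoot level of most of these genes was lower than at 21 °C in hy5 and Col-0, and fewer of them passed the test in phyAB. In phyAB shoots 3 of the 10 were lower (LOX4, JAZ1 and JAZ10) and 1 higher (AOC2), against 22.1% of all genes lower and 21.3% higher. In hy5 shoots 6 were lower and 0 higher, against 22.5% and 23.1% of all genes. In Col-0 shoots 8 were lower and 0 higher, against 23.2% and 22.5%. DESeq2 also called 8 in Col-0. An unadjusted p under 0.05 was found for 9, a looser threshold than that of the shares given here. The median log2 change over the 10 genes was 0.02 in phyAB shoots, −0.70 in hy5 shoots and −1.11 in Col-0 shoots, where the median of all genes lay between −0.003 and 0.014. Levels are given as CPM per library, in the order of the replicate numbers. The shoot is a mixture of cells, and fewer cells of a type and less RNA per cell cannot be told apart.

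LOX2, which adds oxygen to linolenic acid in leaf plastids, had 339, 280 and 234 CPM in phyAB shoots at 27 °C and 300, 295 and 232 at 21 °C. In hy5 shoots it had 253, 206 and 302 CPM at 27 °C and 535, 466 and 625 at 21 °C. In Col-0 shoots it had 235, 65.2 and 68.2 CPM at 27 °C and 335, 442 and 404 at 21 °C. The Col-0 and hy5 libraries at 27 °C all lay below those at 21 °C and the phyAB libraries overlapped. Col-0 replicate 1 at 27 °C stood well above its other 2 replicates. The log2 change was 0.03 ± 0.33 in phyAB (adjusted p = 0.946), −1.11 ± 0.33 in hy5 (adjusted p = 0.0116) and −1.70 ± 0.34 in Col-0 (adjusted p = 0.000529), by edgeR's quasi-likelihood test. Without hy5 shoot replicate 2 at 27 °C the adjusted p in hy5 was 0.0547.

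LOX3, a lipoxygenase of the wound response and of flower fertility, showed the same split with little scatter. It had 9.02, 9.64 and 8.45 CPM in phyAB shoots at 27 °C and 10.9, 11 and 9.34 at 21 °C. In hy5 it had 9.20, 9.24 and 10.5 CPM at 27 °C and 17.4, 18.6 and 18.9 at 21 °C. In Col-0 it had 10.1, 9.61 and 8.06 CPM at 27 °C and 16.9, 20.9 and 15.7 at 21 °C. All 9 libraries at 27 °C thus lay between 8.06 and 10.5 CPM, and the phyAB libraries at 21 °C stood near that range. LOX3 fell by 0.94 ± 0.11 in hy5 (adjusted p = 2.15e-06) and fell by 0.96 ± 0.11 in Col-0 (adjusted p = 1.54e-06) on the log2 scale, and its change in phyAB was −0.21 ± 0.11 (adjusted p = 0.142).

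LOX4, the near relative of LOX3, was low in shoots but fell in every genotype. It had 0.956, 1.02 and 1.32 CPM in phyAB at 27 °C and 1.98, 4.48 and 3.26 at 21 °C. In hy5 it had 1.80, 1.76 and 2.90 CPM at 27 °C and 6.44, 5.39 and 5.58 at 21 °C. In Col-0 it had 2.17, 1.34 and 1.36 CPM at 27 °C and 4.65, 7.74 and 5.65 at 21 °C. No library at 27 °C reached the lowest library of its genotype at 21 °C. The changes were −1.58 ± 0.31 in phyAB (adjusted p = 0.000502), −1.45 ± 0.28 in hy5 (adjusted p = 0.000319) and −1.90 ± 0.28 in Col-0 (adjusted p = 2.92e-05).

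AOS, the cytochrome P450 that commits the lipid to the jasmonate branch, had 150, 138 and 130 CPM in phyAB shoots at 27 °C and 129, 136 and 118 at 21 °C. In hy5 it had 144, 138 and 173 CPM at 27 °C and 254, 208 and 272 at 21 °C. In Col-0 it had 142, 94.8 and 108 CPM at 27 °C and 182, 248 and 195 at 21 °C. The phyAB libraries overlapped between temperatures, while those of hy5 and Col-0 did not. AOS fell by 0.70 ± 0.14 in hy5 (adjusted p = 0.000465) and fell by 0.88 ± 0.14 in Col-0 (adjusted p = 5.94e-05), and its change in phyAB was 0.12 ± 0.14 (adjusted p = 0.532).

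The cyclase genes also differed by genotype. AOC2 had 168, 181 and 156 CPM in phyAB shoots at 27 °C and 107, 135 and 130 at 21 °C. In hy5 it had 129, 147 and 179 CPM at 27 °C and 223, 209 and 297 at 21 °C. In Col-0 it had 76.8, 49.3 and 66.0 CPM at 27 °C and 163, 219 and 196 at 21 °C. Within each genotype the libraries of the temperatures did not overlap, but in phyAB the 27 °C libraries were the higher ones. AOC2 rose by 0.43 ± 0.16 in phyAB (adjusted p = 0.0376), fell by 0.69 ± 0.16 in hy5 (adjusted p = 0.00165) and fell by 1.61 ± 0.16 in Col-0 (adjusted p = 4.82e-07). The rise in phyAB did not pass the test by DESeq2, without phyAB shoot replicate 1 or 3 at 21 °C, or without replicate 1 or 2 at 27 °C (adjusted p up to 0.147). Nor did it pass by edgeR without the phyAB shoot libraries numbered 3 (adjusted p = 0.0594).

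AOC1, its neighbour, had 26.2, 29.4 and 22.7 CPM in phyAB at 27 °C and 22.4, 28.4 and 27.3 at 21 °C. In hy5 it had 18.2, 16.3 and 20.5 CPM at 27 °C and 30.3, 20.7 and 23.9 at 21 °C. In Col-0 it had 19.0, 10.1 and 8.99 CPM at 27 °C and 28.2, 35.6 and 27.7 at 21 °C. The phyAB libraries overlapped, the hy5 libraries were separated by a narrow gap, and the Col-0 libraries were far apart. AOC1 fell by 1.28 ± 0.21 in Col-0 (adjusted p = 6.62e-05), and the changes of −0.46 ± 0.20 in hy5 and 0.00 in phyAB did not pass the test (adjusted p = 0.0723 and 0.99). The hy5 change did pass by edgeR with the compared libraries alone (adjusted p = 0.0157). It also passed without hy5 shoot replicate 2 at 21 °C (adjusted p = 0.0463) and without all shoot libraries at 27 °C numbered 3 (adjusted p = 0.0466).

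OPR3, downstream of the cyclases, changed little. It had 21.6, 24.1 and 24.4 CPM in phyAB at 27 °C and 22.8, 22.1 and 20.2 at 21 °C. In hy5 it had 21.0, 22.2 and 24 CPM at 27 °C and 22.4, 19.0 and 22.9 at 21 °C. In Col-0 it had 25.3, 17.8 and 21.2 CPM at 27 °C and 23.9, 30.4 and 24.7 at 21 °C, so the libraries overlapped in all 3 genotypes. It fell by 0.32 ± 0.11 in Col-0 (adjusted p = 0.0278), a call that ended without Col-0 shoot replicate 2 at 21 °C, or replicate 2 or 3 at 27 °C (adjusted p up to 0.170). It also ended with the compared libraries alone (adjusted p = 0.0778) and without all shoot libraries at 27 °C numbered 3 (adjusted p = 0.0767). In phyAB and hy5 the adjusted p was 0.53 and 0.767.

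**Figure D2:**
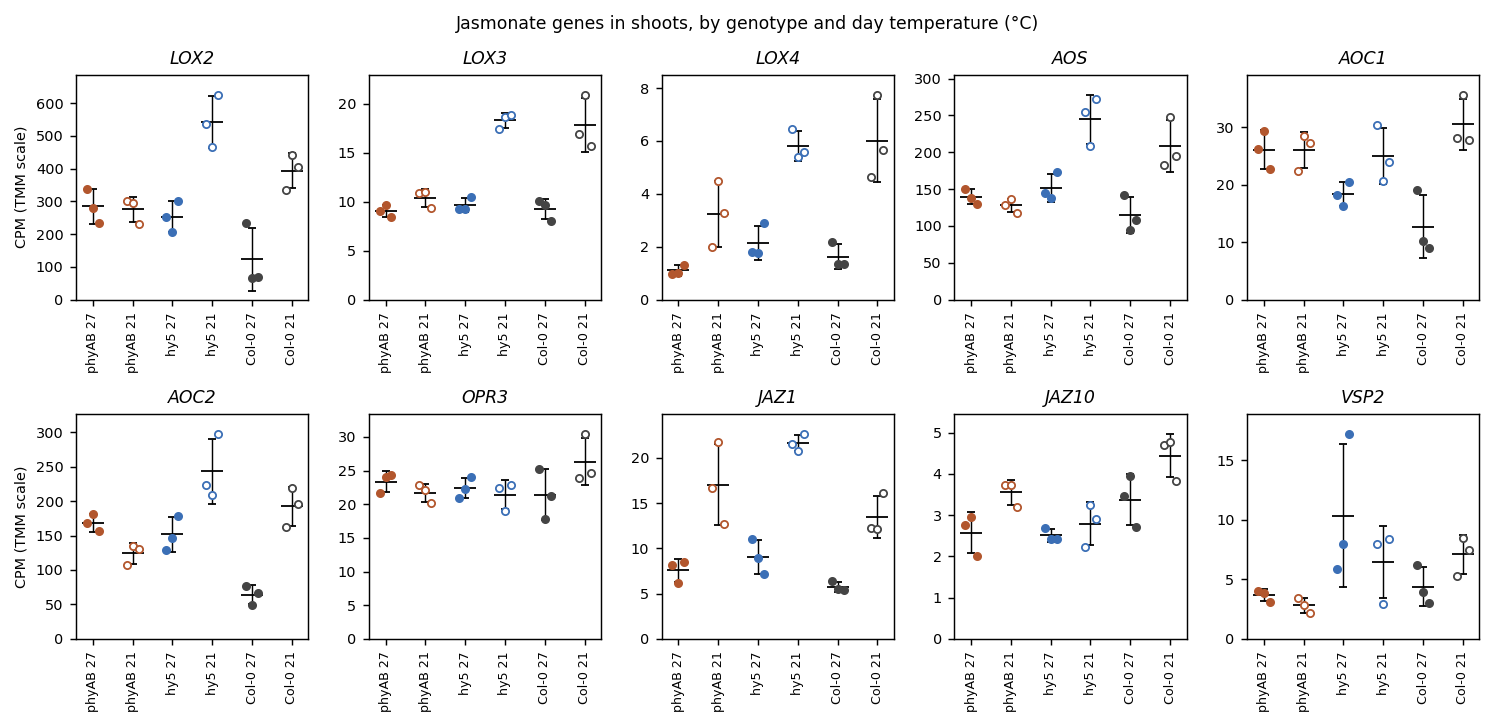
Level of each of the 10 genes in the 18 shoot libraries, in CPM on axes that start at 0; each point is a library, filled at 27 °C and open at 21 °C, and the line and bars are the mean and SD over 3 libraries. For LOX2 and AOS the phyAB points of the temperatures overlap while those of hy5 and Col-0 are apart, and for JAZ1 the filled points lie below the open ones in every genotype.

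Of the repressors and the response gene, JAZ1, an early hormone-induced repressor, passed the test in all 3 genotypes. JAZ1 had 8.19, 6.12 and 8.45 CPM in phyAB shoots at 27 °C and 16.7, 21.7 and 12.7 at 21 °C. In hy5 it had 11, 8.88 and 7.21 CPM at 27 °C and 21.5, 20.8 and 22.6 at 21 °C. In Col-0 it had 6.37, 5.54 and 5.35 CPM at 27 °C and 12.2, 12.1 and 16.1 at 21 °C. The libraries of the temperatures were apart in each genotype. The changes were −1.19 ± 0.18 in phyAB (adjusted p = 4.67e-05), −1.26 ± 0.18 in hy5 (adjusted p = 1.84e-05) and −1.25 ± 0.20 in Col-0 (adjusted p = 5.04e-05).

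JAZ10, a repressor known for splice forms that resist degradation, had 2.75, 2.95 and 2.01 CPM in phyAB at 27 °C and 3.72, 3.74 and 3.20 at 21 °C. In hy5 it had 2.70, 2.42 and 2.43 CPM at 27 °C and 2.22, 3.25 and 2.91 at 21 °C. In Col-0 it had 3.46, 3.94 and 2.71 CPM at 27 °C and 4.70, 4.78 and 3.84 at 21 °C. The phyAB libraries at 27 °C all lay below those at 21 °C, and the hy5 and the Col-0 libraries overlapped. It passed the test in phyAB (−0.47 ± 0.18, adjusted p = 0.0441), and that call was lost by DESeq2, with no low-count filter, with the compared libraries alone, and without any of 4 single phyAB libraries (replicate 1 or 2 at 21 °C, replicate 1 or 3 at 27 °C; adjusted p up to 0.176). Without all shoot libraries at 27 °C numbered 3 its adjusted p was 0.168, and without the phyAB shoot libraries numbered 3 it was 0.139. Its values in hy5 (−0.15, adjusted p = 0.567) and Col-0 (−0.42, adjusted p = 0.0592) did not pass. JAZ10 overlaps a gene annotated on the other strand, AT5G02045, and the strand setting of the counting is not given, so reads of that gene could be among its counts.

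VSP2, a leaf storage protein and the classic reporter of the MYC branch, had 4.06, 3.85 and 3.12 CPM in phyAB at 27 °C and 3.47, 2.82 and 2.19 at 21 °C. In hy5 it had 5.86, 8.00 and 17.2 CPM at 27 °C and 7.99, 2.93 and 8.37 at 21 °C. In Col-0 it had 6.17, 3.94 and 3.00 CPM at 27 °C and 5.31, 8.51 and 7.46 at 21 °C. The libraries of the temperatures overlapped in every genotype and none of the 3 changes passed the test (adjusted p = 0.522 in phyAB, 0.164 in hy5 and 0.148 in Col-0). A list of 12 touch and wound early genes, which can move when tissue is handled, summed to 275 to 319 CPM in phyAB shoots at 27 °C and 285 to 446 at 21 °C. In hy5 shoots it summed to 202 to 230 CPM at 27 °C and 250 to 273 at 21 °C, and in Col-0 shoots to 180 to 188 and 192 to 221 CPM. In each genotype 4 or 5 of its 11 tested genes were lower at 27 °C, where 22.1 to 23.2% of all genes were. The part of this list in the jasmonate values was not tested.

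**Figure D3:**
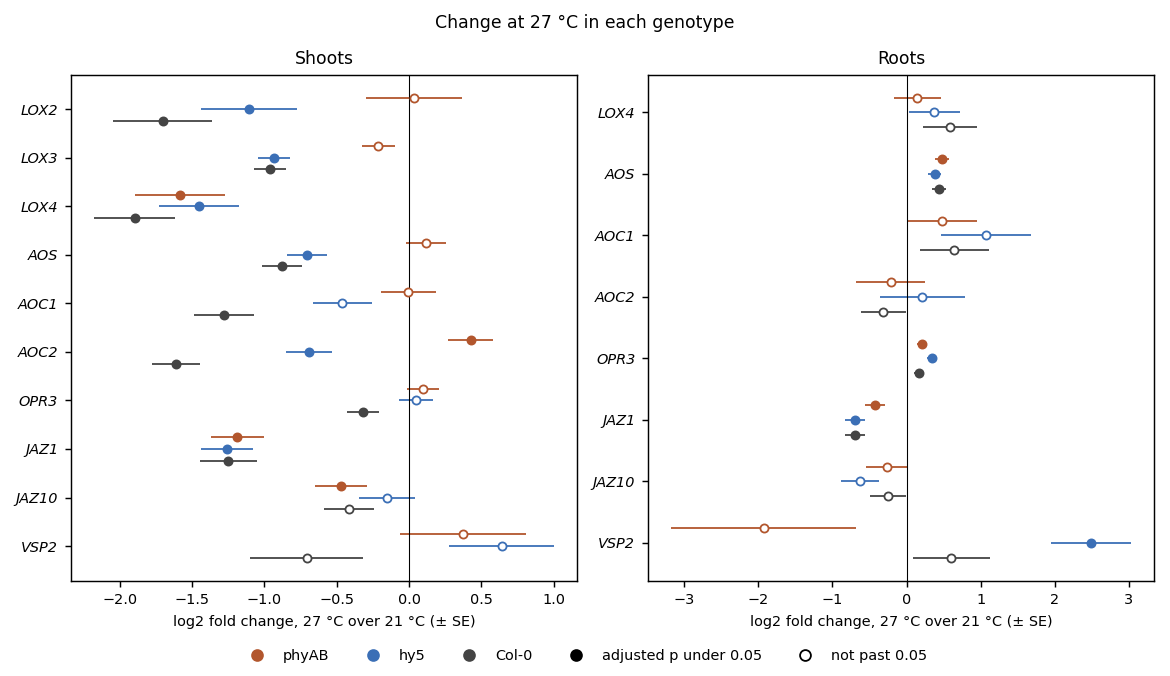
Log2 fold change at 27 °C against 21 °C with its standard error for each gene in phyAB, hy5 and Col-0, in shoots (10 genes) and roots (8 genes, without LOX2 and LOX3, which had almost no root reads); filled points have an adjusted p under 0.05. In shoots the Col-0 points of LOX2, AOS, AOC1 and AOC2 lie well below the phyAB points, while those of JAZ1 and LOX4 lie close together.

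The difference between genotypes in the response to warmth was tested directly. Against Col-0, the shoot response of phyAB was higher for 4 of the 10 genes, all plastid enzymes, where 1.63% of all genes had a higher and 1.88% a lower response in phyAB. The differences were 2.04 ± 0.23 for AOC2 (adjusted p = 0.000196), 1.27 ± 0.28 for AOC1 (adjusted p = 0.0186), 1.0 ± 0.20 for AOS (adjusted p = 0.0101) and 0.75 ± 0.16 for LOX3 (adjusted p = 0.0144) on the log2 scale. LOX2 had a difference of 1.74 ± 0.47 with an adjusted p of 0.0503, which was 2.58e-05 without Col-0 shoot replicate 1 at 27 °C. It was 0.0167 with the replicate number as a block (difference 1.84) and 0.0337 with no low-count filter. For JAZ1, LOX4 and JAZ10 the differences were 0.06 ± 0.27, 0.31 ± 0.44 and −0.05, and for OPR3 and VSP2 0.41 ± 0.16 and 1.08 ± 0.58, none past the threshold. The calls for AOC2 and AOS held under every alternative tried. AOC1 lost its call without Col-0 shoot replicate 2 at 21 °C or at 27 °C (adjusted p up to 0.0686), and AOC1 and LOX3 lost theirs without the shoot libraries at 27 °C numbered 3 (adjusted p = 0.0538 and 0.0518).

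The shoot response of hy5 was not shown to differ from that of Col-0 for any of the 10 genes. edgeR and DESeq2 each called 0 of the 10, where edgeR called 1 gene of 20100, or 0.00498%, in the whole table. An unadjusted p under 0.05 was found for 4 of the 10, with no share of all genes at that threshold to set beside it. AOC2 had the lowest adjusted p among them, with a difference of 0.92 ± 0.23 (adjusted p = 0.24). Without Col-0 shoot replicate 1 at 27 °C, which had more LOX2 and AOC1 reads than its group, the differences of LOX2 (1.48, adjusted p = 0.0305) and AOC1 (1.22, adjusted p = 0.0436) passed.

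Set against Col-0 at the same temperature, phyAB shoots had 5 genes lower at 21 °C and 3 higher at 27 °C, AOC2 among both. At 21 °C, 5 of the 10 were lower and 0 higher, against 20.2% and 18% of all genes: LOX3 at −0.78 ± 0.11, AOS at −0.71 ± 0.14, AOC2 at −0.64 ± 0.16, LOX4 at −0.88 ± 0.25 and VSP2 at −1.32 ± 0.40 on the log2 scale (adjusted p = 1.75e-05, 0.000547, 0.00385, 0.0102 and 0.0151). At 27 °C, 3 were higher and 0 lower, against 18.8% and 23.7% of all genes: AOC2 by 1.40 ± 0.16, AOC1 by 1.05 ± 0.21 and LOX2 by 1.22 ± 0.34 (adjusted p = 2.39e-06, 0.000539 and 0.00735). LOX4 lost its call at 21 °C without Col-0 shoot replicate 2 or phyAB shoot replicate 1, and VSP2 without Col-0 shoot replicate 2 or phyAB shoot replicate 3 (adjusted p up to 0.0695 and 0.0617). VSP2 also lost its call by edgeR without the phyAB shoot libraries numbered 3 (adjusted p = 0.0689). The TMM factors moved the median of all genes by −0.16 in both of these comparisons. In the same comparisons the shoot markers were lower for 12 of 12 genes at 21 °C and 11 of 12 at 27 °C, with medians of −0.37 and −0.35 on the log2 scale. The touch and wound early genes were higher for 8 of 11 at 21 °C and 10 of 11 at 27 °C, with medians of 0.75 and 0.99. Transcripts of 16 seed storage and oil body genes summed to 262 to 1460 CPM in phyAB shoots at 27 °C and 396 to 2860 at 21 °C, where the other shoot groups had 3.71 to 21.3 CPM. The part of these 3 lists in the jasmonate values was not tested.

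In hy5 shoots 2 genes differed from Col-0 at 21 °C and 4 at 27 °C. At 21 °C JAZ1 was higher by 0.68 ± 0.17 (adjusted p = 0.0101) and JAZ10 was lower at −0.68 ± 0.18 (adjusted p = 0.0134), which is 1 of 10 each way against 8.99% of all genes higher and 8.94% lower. JAZ10 lost its call without hy5 shoot replicate 1 at 21 °C (adjusted p = 0.0647). At 27 °C 4 were higher and 0 lower, against 6.18% and 6.06%. AOC2 was higher by 1.25 ± 0.16 (adjusted p = 7.89e-05) and held under every alternative tried. LOX2 (1.05 ± 0.34, adjusted p = 0.0491), JAZ1 (0.66 ± 0.21, adjusted p = 0.0441) and VSP2 (1.23 ± 0.38, adjusted p = 0.0423) did not. LOX2 lost its call without any one of the hy5 libraries or of Col-0 replicates 2 and 3 (adjusted p up to 0.189). JAZ1 lost its call without any one of the Col-0 libraries or of hy5 replicates 1 and 2 (adjusted p up to 0.223), and VSP2 without replicate 2 or 3 of either genotype (adjusted p up to 0.260). Without all shoot libraries at 27 °C numbered 3 the adjusted p was 0.350 for LOX2, 0.0864 for JAZ1 and 0.529 for VSP2. With the compared libraries alone LOX2 (adjusted p = 0.152) and VSP2 (adjusted p = 0.0812) lost their calls, and LOX2 lost its call by DESeq2 (adjusted p = 0.0848). Of the touch and wound early genes, 5 of 11 were higher at 21 °C and 4 of 11 at 27 °C, and their part was not tested.

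**Figure D4:**
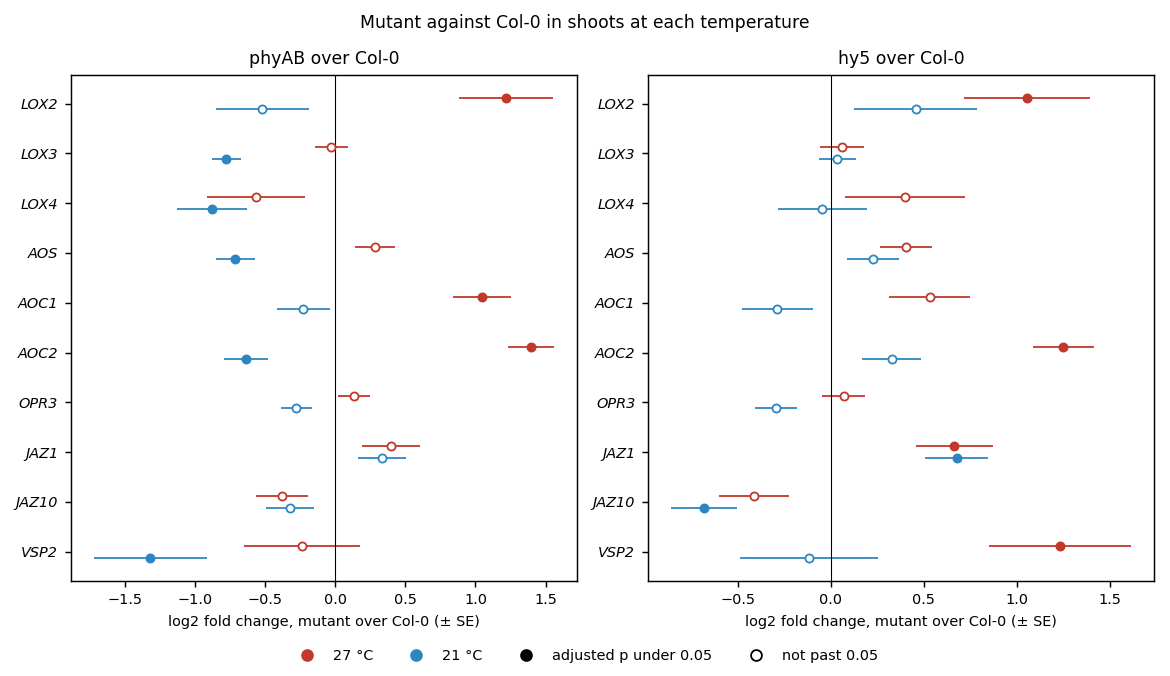
Log2 fold change of phyAB against Col-0 and of hy5 against Col-0 in shoots with its standard error, for each gene at 27 °C and at 21 °C; filled points have an adjusted p under 0.05. AOC2 in phyAB lies at 1.40 at 27 °C and at −0.64 at 21 °C.

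In roots the enzymes that passed the test were higher at 27 °C. LOX2 and LOX3 were too low to test there. Of the other 8 genes, 2 rose and 1 fell in phyAB (19.2% of all genes each way), 3 rose and 1 fell in hy5 (25.7% and 23.9%), and 2 rose and 1 fell in Col-0 (21.7% and 21.8%). In every genotype AOS and OPR3 were the genes higher and JAZ1 the gene lower, joined in hy5 by VSP2.

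AOS had 22.4, 23.5 and 23.7 CPM in phyAB roots at 27 °C and 16.7, 17.8 and 14.5 at 21 °C. In hy5 it had 27.4, 27.1 and 23.0 CPM at 27 °C and 22.1, 18.2 and 17.9 at 21 °C. In Col-0 it had 19.4, 19.5 and 17.8 CPM at 27 °C and 13.7, 12.5 and 15.0 at 21 °C. It rose by 0.48 ± 0.09 in phyAB, 0.38 ± 0.09 in hy5 and 0.44 ± 0.09 in Col-0 (adjusted p = 0.000618, 0.00205 and 0.000961), with no overlap of the temperatures in any genotype. OPR3 had 24.9, 25.5 and 25.2 CPM in phyAB at 27 °C and 19.9, 22.7 and 21.9 at 21 °C. In hy5 it had 23.5, 24.6 and 24.3 CPM at 27 °C and 19.0, 17.4 and 19.7 at 21 °C. In Col-0 it had 24.5, 23.1 and 23.9 CPM at 27 °C and 21.0, 21.0 and 20.8 at 21 °C. The temperatures did not overlap in any genotype. Its rises were small, 0.20 ± 0.06 in phyAB (adjusted p = 0.0112), 0.34 ± 0.06 in hy5 (adjusted p = 0.00013) and 0.16 ± 0.06 in Col-0 (adjusted p = 0.03). The Col-0 call was lost with no low-count filter, and without any one of its 21 °C libraries or of replicates 1 and 3 at 27 °C (adjusted p up to 0.0901), and the phyAB call without phyAB root replicate 1 at 21 °C or with the compared libraries alone (adjusted p up to 0.0594).

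JAZ1 had 21.4, 19.8 and 23.0 CPM in phyAB roots at 27 °C and 26.6, 34.4 and 23.7 at 21 °C. In hy5 it had 25.4, 23.9 and 26.2 CPM at 27 °C and 49.2, 35.9 and 34.4 at 21 °C. In Col-0 it had 24.3, 18.2 and 23.7 CPM at 27 °C and 33.8, 34.3 and 37.6 at 21 °C. As in shoots, every library at 27 °C lay below those of its genotype at 21 °C. Its log2 change was −0.43 ± 0.14 in phyAB, −0.69 ± 0.13 in hy5 and −0.70 ± 0.13 in Col-0 (adjusted p = 0.0211, 0.000314 and 0.000372). The phyAB call was lost without phyAB root replicate 2 at 21 °C or replicate 1 or 2 at 27 °C (adjusted p up to 0.143). JAZ10, at 0.703 to 1.70 CPM over the 18 root libraries, did not pass in any genotype, and was closest in hy5 (−0.63 ± 0.26, adjusted p = 0.0525).

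VSP2 ranged between 0 and 7.22 CPM over the root libraries. It had 0.039, 0 and 0.375 CPM in phyAB at 27 °C and 0.225, 1.06 and 0.152 at 21 °C. In hy5 it had 5.62, 7.22 and 5.55 CPM at 27 °C and 1.32, 1.12 and 0.676 at 21 °C. In Col-0 it had 5.79, 0.958 and 1.25 CPM at 27 °C and 1.48, 1.80 and 1.91 at 21 °C. The hy5 libraries were apart by temperature, and Col-0 replicate 1 at 27 °C stood far above its other 2 replicates. VSP2 rose by 2.50 ± 0.54 in hy5 roots (adjusted p = 0.000859). The values in phyAB (−1.93 ± 1.25) and Col-0 (0.61 ± 0.52) did not pass the test (adjusted p = 0.24 and 0.369). No difference between genotypes in the root response passed for any of the 8 genes. For phyAB against Col-0, edgeR and DESeq2 called 0 of the 8, where edgeR called 0.0983% of all genes. For hy5 against Col-0, both called 0, where edgeR called 0.413% of all genes. An unadjusted p under 0.05 was found for 0 and 1 of the 8, with no share of all genes at that threshold to set beside it. By edgeR the VSP2 difference for hy5 was 1.89 (adjusted p = 0.39). Without Col-0 root replicate 1 at 27 °C that difference was 3.16 and passed (adjusted p = 0.014).

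**Figure D5:**
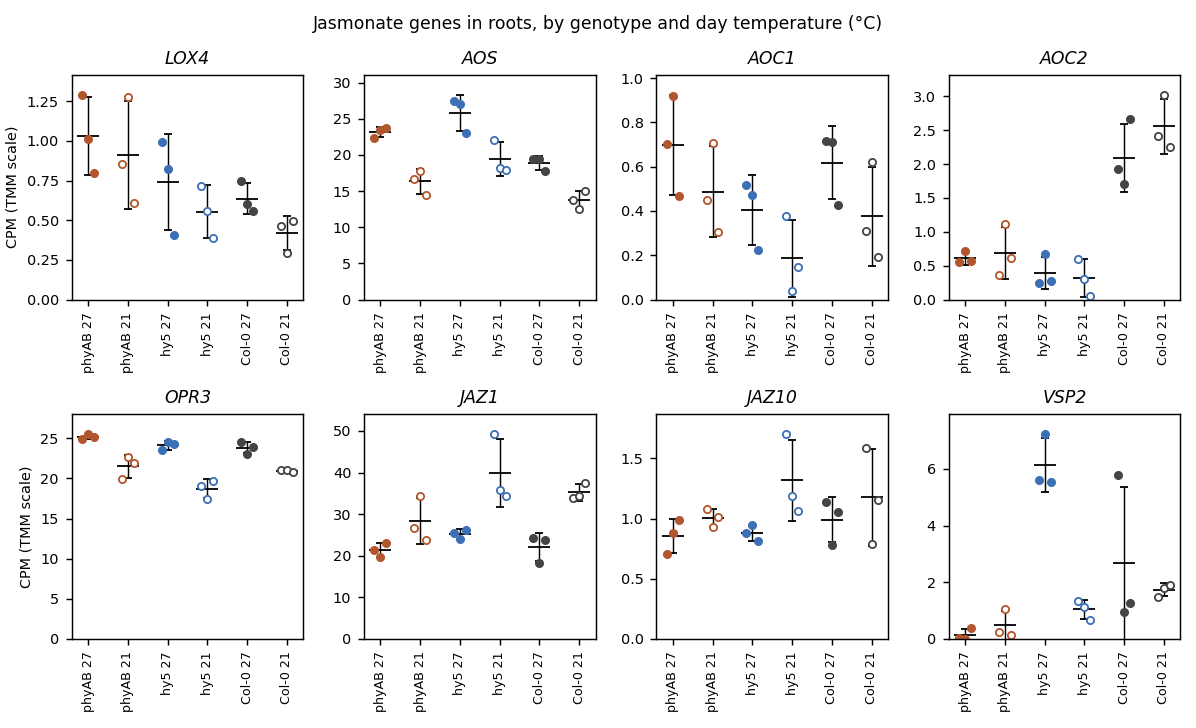
Level of the 8 genes tested in roots in the 18 root libraries, in CPM on axes that start at 0; each point is a library, filled at 27 °C and open at 21 °C, and the line and bars are the mean and SD over 3 libraries, with bars that would pass below 0 ended at the axis. Filled points lie above the open ones for AOS and below them for JAZ1 in each genotype, and AOC2 is highest in Col-0.

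AOS and AOC2 passed the test against Col-0 in the roots of both mutants at both temperatures. At 21 °C, 2 of the 8 tested genes were higher and 1 lower in phyAB roots (17.2% and 17.9% of all genes), and 1 was higher and 1 lower in hy5 roots (16.7% and 18.4%). At 27 °C, 1 was higher and 2 lower in phyAB (14.6% and 16.6%), and 2 were higher and 1 lower in hy5 (16% and 17.4%). AOS was higher in phyAB by 0.27 ± 0.10 at 21 °C and 0.31 ± 0.09 at 27 °C (adjusted p = 0.0336 and 0.013), and in hy5 by 0.54 ± 0.09 and 0.48 ± 0.09 (adjusted p = 0.000181 and 0.000411). The phyAB call at 21 °C was lost without replicate 1 or 2 of either genotype (adjusted p up to 0.162), and the one at 27 °C without Col-0 root replicate 3 (adjusted p = 0.0631).

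AOC2 in roots had 0.547, 0.712 and 0.562 CPM in phyAB at 27 °C and 0.359, 1.11 and 0.607 at 21 °C. In hy5 it had 0.239, 0.667 and 0.271 CPM at 27 °C and 0.605, 0.298 and 0.0483 at 21 °C. In Col-0 it had 1.92, 1.70 and 2.66 CPM at 27 °C and 2.41, 3.02 and 2.25 at 21 °C. Every Col-0 library was above every mutant library. The log2 change of AOC2 against Col-0 was −1.86 ± 0.37 at 21 °C and −1.76 ± 0.38 at 27 °C in phyAB (adjusted p = 0.000685 and 0.00156) and −2.89 ± 0.42 and −2.36 ± 0.41 in hy5 (adjusted p = 2.15e-05 and 0.000194). Col-0 roots also had the highest summed level of the 12 shoot markers at each temperature. It was 169 to 379 CPM in phyAB at 27 °C and 94.4 to 161 at 21 °C. It was 73.3 to 143 and 36.6 to 45.3 CPM in hy5, and 523 to 642 and 234 to 290 CPM in Col-0. As a share of the shoot level, root AOC2 was 0.361% in phyAB, 0.259% in hy5 and 3.27% in Col-0 at 27 °C, and the shoot markers were 0.237%, 0.086% and 0.406%. At 21 °C root AOC2 was 0.556%, 0.131% and 1.33%, and the shoot markers were 0.122%, 0.0326% and 0.205%. The Col-0 shoot level of AOC2, by which its share is divided, averaged 64.0 CPM at 27 °C and 193 CPM at 21 °C. The part of shoot-type transcripts in the AOC2 difference between genotypes was not tested.

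VSP2 was lower in phyAB roots than in Col-0 roots at 27 °C (−4.32 ± 0.88, adjusted p = 0.000853), on few reads in phyAB, and the value at 21 °C was −1.79 ± 0.73 (adjusted p = 0.066). In hy5 roots at 27 °C it was higher by 1.22 ± 0.46 (adjusted p = 0.0494), a call lost by DESeq2, without any one of the hy5 libraries, and without Col-0 root replicate 2 or 3 (adjusted p up to 0.273). LOX4 was higher in phyAB roots at 21 °C by 1.16 ± 0.36 (adjusted p = 0.016), at 0.853, 1.28 and 0.607 CPM in phyAB and 0.466, 0.295 and 0.496 CPM in Col-0, and lost its call without replicate 2 of either genotype (adjusted p up to 0.113). AOC1, between 0.0373 and 0.921 CPM in all root libraries, passed no test between genotypes or temperatures within roots.

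The response to warmth was compared between organs in one model. In Col-0 it was lower in shoots than in roots for 5 of the 10 genes and higher for 0, against 8.83% and 6.92% of all genes. The differences were LOX4 at −2.49 ± 0.48, AOC1 at −1.92 ± 0.57, AOS at −1.32 ± 0.19, AOC2 at −1.30 ± 0.33 and OPR3 at −0.48 ± 0.13 on the log2 scale (adjusted p = 0.000535, 0.0201, 9.34e-06, 0.0072 and 0.00902). In hy5 it was lower for 2, LOX4 and AOS, against 10.1% of all genes lower and 6.69% higher, with differences of −1.85 ± 0.47 and −1.11 ± 0.18 (adjusted p = 0.00604 and 6.37e-05). In phyAB it was lower for 2, LOX4 (−1.74 ± 0.46, adjusted p = 0.0129) and JAZ1 (−0.77 ± 0.24, adjusted p = 0.0358), against 7.12% lower and 4.46% higher. The AOS difference in phyAB was −0.37 ± 0.19 (adjusted p = 0.206). AOC1 and AOC2 rest on at most 92 root reads a library, and LOX4 on 8 to 33. AOC1 lost its Col-0 call without Col-0 root replicate 1 or 3 at 21 °C or replicate 1 or 2 at 27 °C (adjusted p up to 0.0726), and AOC2 without Col-0 root replicate 3 at 27 °C (adjusted p = 0.0523). LOX4 lost its phyAB call without phyAB root replicate 1 at 27 °C (adjusted p = 0.0504). JAZ1 lost its call without any one of 7 phyAB libraries, namely root replicates 1 and 3 at both temperatures, shoot replicates 1 and 2 at 21 °C and shoot replicate 2 at 27 °C (adjusted p up to 0.156).

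Of 66 further jasmonate genes listed for synthesis, perception, JAZ repressors, turnover and response, 51 were tested in shoots and 47 in roots. At 27 °C in shoots, 14 rose and 8 fell in phyAB, 14 rose and 7 fell in hy5, and 12 rose and 15 fell in Col-0. Of all genes, 21.3 to 23.1% rose and 22.1 to 23.2% fell in these shoot comparisons. In roots 18 rose and 3 fell in phyAB, where 19.2% of all genes went each way. In hy5 roots 25 rose and 3 fell, against 25.7% and 23.9%, and in Col-0 roots 15 and 4, against 21.7% and 21.8%. Their median change lay between −0.03 and 0.07 on the log2 scale in shoots and between 0.17 and 0.27 in roots.

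Among the genes with the largest changes, JMT, which makes the volatile methyl ester, averaged 0.437 ± 0.200 CPM in phyAB shoots at 27 °C and 1.33 ± 0.56 at 21 °C. The means were 1.63 ± 0.22 and 4.79 ± 0.31 CPM in hy5 and 0.614 ± 0.193 and 3.16 ± 0.71 CPM in Col-0 (SD, n = 3 each). Its log2 change was −1.56 ± 0.37 in phyAB, −1.57 ± 0.27 in hy5 and −2.36 ± 0.32 in Col-0 (adjusted p = 0.00237, 0.000117 and 1.15e-05). CORI3, a coronatine-induced lyase, had a log2 change of −1.42 ± 0.76 in phyAB shoots, −1.12 ± 0.43 in hy5 shoots and −2.04 ± 0.44 in Col-0 shoots (adjusted p = 0.146, 0.0436 and 0.001). It was lower in phyAB than in Col-0, at −3.11 ± 0.48 at 21 °C and −2.49 ± 0.68 at 27 °C (adjusted p = 6.76e-05 and 0.00662). It had 0 reads in every root library. ILL6, which splits jasmonate conjugates, averaged 33.8 ± 1.79 CPM in phyAB shoots at 27 °C and 14.2 ± 1.31 at 21 °C. The means were 23.4 ± 1.01 and 6.19 ± 0.35 CPM in hy5 and 27.4 ± 3.85 and 6.76 ± 1.97 CPM in Col-0 (SD, n = 3 each). It rose in all 3 genotypes, by 1.24 ± 0.12 in phyAB, 1.91 ± 0.15 in hy5 and 1.99 ± 0.14 in Col-0 (adjusted p = 3.99e-07, 2.75e-08 and 1.18e-08).

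ST2A, which adds sulfate to hydroxyjasmonate and so inactivates it, set phyAB shoots apart. It averaged 157 ± 2.64 CPM in phyAB shoots at 27 °C and 43.2 ± 2.06 at 21 °C. It averaged 3.56 ± 0.61 and 1.56 ± 0.43 CPM in hy5 and 2.93 ± 0.32 and 2.33 ± 0.54 CPM in Col-0 (SD, n = 3 each). It rose by 1.85 ± 0.09 at 27 °C in phyAB (adjusted p = 2.63e-10), and it was higher in phyAB than in Col-0 by 5.75 ± 0.12 at 27 °C and 4.18 ± 0.12 at 21 °C (adjusted p = 7.6e-16 and 4.08e-13). Its response differed between phyAB and Col-0 by 1.57 ± 0.20 (adjusted p = 0.000467). In phyAB its response was also higher in shoots than in roots, by 1.24 ± 0.22 (adjusted p = 0.000418).

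In roots the wider list held changes of its own. HEL, a hevein-like defence protein, rose at 27 °C in all 3 genotypes, by 1.09 ± 0.12 in phyAB, 1.46 ± 0.12 in hy5 and 1.32 ± 0.12 in Col-0 (adjusted p = 2.65e-06, 4.29e-08 and 2.2e-07). NAC055, a NAC transcription factor of the MYC2 branch, rose by 1.85 ± 0.39 in phyAB and 2.98 ± 0.46 in hy5 (adjusted p = 0.00102 and 2.92e-05), and its value in Col-0 was 0.73 ± 0.49 (adjusted p = 0.249). The repressor JAZ7 rose by 1.51 ± 0.38 in phyAB, 0.98 ± 0.34 in hy5 and 1.06 ± 0.39 in Col-0 (adjusted p = 0.00412, 0.0216 and 0.035). JAZ4, another repressor, averaged 5.27 ± 0.49 CPM in phyAB roots, 5.18 ± 0.14 CPM in hy5 roots and 19.9 ± 5.27 CPM in Col-0 roots at 27 °C (SD, n = 3 each). It was lower than in Col-0 in both mutants, at −1.89 ± 0.21 in phyAB and −1.91 ± 0.21 in hy5 at 27 °C (adjusted p = 1.52e-06 and 1.11e-06). At 21 °C the values were −1.76 ± 0.21 and −1.77 ± 0.20 (adjusted p = 2.37e-06 and 1.54e-06). JAZ9 was also lower in both mutants at 21 °C, at −0.93 ± 0.20 in phyAB and −1.97 ± 0.22 in hy5 (adjusted p = 0.00114 and 1e-06). NAC055 was higher than in Col-0 at 27 °C in phyAB roots by 2.0 ± 0.37 (adjusted p = 0.000341) and in hy5 roots by 1.80 ± 0.37 (adjusted p = 0.000959). In phyAB roots ORA59, an ERF factor, was lower than in Col-0 at both temperatures (−1.96 ± 0.39 at 21 °C and −1.92 ± 0.33 at 27 °C, adjusted p = 0.000586 and 0.000164) and the aminotransferase TAT3 lower at 27 °C (−2.34 ± 0.52, adjusted p = 0.00192). JOX3, a jasmonate oxidase, was also lower at 21 °C (adjusted p = 0.0211), with at most 1 read in any phyAB library and 10 to 56 in Col-0.

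In hy5 shoots the repressor JAZ4 was lower than in Col-0 at 21 °C (−1.08 ± 0.20, adjusted p = 0.00128), where its value in phyAB was −0.40 ± 0.18 (adjusted p = 0.1). The chitinase CHI-B was higher than in Col-0 at 21 °C by 1.04 ± 0.24 in phyAB and 0.77 ± 0.24 in hy5 (adjusted p = 0.00191 and 0.0346). At 27 °C AOC3 was higher by 0.94 ± 0.23 in phyAB and 1.43 ± 0.23 in hy5 (adjusted p = 0.00304 and 0.000476). JMT was higher at 27 °C in hy5 by 1.39 ± 0.36 (adjusted p = 0.0156) and had −0.45 ± 0.43 in phyAB (adjusted p = 0.435). Between organs, the response to warmth in Col-0 was lower in shoots for TAT3 (−4.37), JMT (−3.33), ORA59 (−1.30) and HEL (−1.24) and higher for ILL6 (1.47). In hy5 it was lower for NAC055 (−1.97), the hydroxylase CYP94C1 (−1.38) and HEL (−1.18) and higher for ILL6 (1.16), and in phyAB it was lower for ORA59 (−1.93). The Col-0 differences of TAT3 (SE 1.38, edgeR adjusted p = 0.0291) and JMT (SE 0.89, adjusted p = 0.00994) rest on few reads. TAT3 had 1 read over all Col-0 shoot libraries at 27 °C and 21 reads at 21 °C. JMT had 7 reads over all Col-0 root libraries at 27 °C and 3 at 21 °C. Chosen after their values were seen, FAD8, a plastid desaturase that makes linolenic acid, fell in all 6 comparisons of 27 °C with 21 °C, with log2 changes of −1.05 to −0.98 in shoots and −0.70 to −0.42 in roots, and LOX6 rose in shoots of all 3 genotypes, by 0.22 to 0.44. MYC2, the central activator, was likewise higher at 27 °C in 5 of the 6, with Col-0 shoots the exception (0.17 ± 0.12, adjusted p = 0.255).

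Across the 18 shoot libraries some pairs of the plastid enzymes followed each other closely and others less so. Pearson's r of log2 CPM was 0.906 between LOX2 and AOC2, 0.889 between LOX3 and AOS and 0.887 between LOX3 and LOX4. The value was 0.861 between LOX2 and AOS, 0.847 between LOX2 and AOC1, 0.846 between AOS and AOC2 and 0.769 between AOC1 and AOC2. It was 0.528 between LOX4 and AOC1, 0.529 between LOX3 and AOC1, 0.573 between LOX4 and AOC2, 0.617 between AOS and AOC1 and 0.65 between LOX3 and AOC2. JAZ1 reached 0.771 with LOX4 and 0.739 with LOX2. JAZ10 followed none of them closely, with r between −0.12 and 0.448 for its pairs. The libraries share groups, organ and depth, so these values describe the set and carry no test. Outside the 10, the shoot patterns most like LOX2 were those of ATSDI1 (r = 0.911) and ARGAH2 (r = 0.909), those most like AOS were AT3G59300 (0.915) and PAO2 (0.904), and those most like AOC2 were GA20OX1 (0.903) and AT3G19000 (0.876). EMP1 (0.965) and ATMS1 (0.958) were nearest to JAZ1, IBR1 (0.811) and YSL2 (0.778) to OPR3. MIR157c (0.864) and AT4G29590 (0.861) were nearest to JAZ10, and WCRKC2 (0.841) and HCF243 (0.823) to VSP2. In the 18 root libraries HEXO3 (0.965) and PIP2A (0.963) were nearest to AOS, UVR3 (0.953) and SULA (0.946) to AOC2, and XK-2 (0.939) and AT1G53190 (0.932) to OPR3. Nearest to JAZ1 were AT3G13610 (0.935) and IAA12 (0.923), to JAZ10 AT2G32295 (0.817) and AT2G16580 (0.784), and to VSP2 AT2G16005 (0.9) and AT1G77520 (0.881).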

How the data were processed

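Per the labels' protocols, stranded TruSeq mRNA libraries gave single-end reads (50 bases). The submitters' processing notes name FastQC, TopHat2, HTSeq, edgeR and TAIR10, without versions or a strand setting. The deposited files hold raw read counts per gene. Their 5 summary lines (no feature 0.697 to 1.81%, ambiguous 0.0566 to 0.299%) were left out of library sizes.

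Counts were fitted with edgeR 4.0.16 (R 4.3.3): filterByExpr, TMM factors, glmQLFit and glmQLFTest, by organ (18 libraries each; 20100 genes in shoots, 20355 in roots) or jointly for organ contrasts (36 libraries; 21598 genes). P-values were adjusted by Benjamini-Hochberg over all genes, with a threshold of 0.05; SE is the absolute log2 fold change over the square root of F. Counts were also simulated for the Col-0 comparison of 27 °C with 21 °C, with log2 changes of 1 up or down and the same dispersion for every gene. Of 200 changed genes 186 (shoot) and 183 (root) were recovered, with 10 and 12 false calls. Smaller changes and genes with wider scatter were not simulated. Replicates differed by more than sampling noise (chi-square per degree of freedom 3.19 to 14.4 over 36 pairs).

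Same-numbered libraries deviated together, from the data, in phyAB roots of the 2 temperatures (correlations 0.161 to 0.169), in hy5 and Col-0 shoots at 27 °C (0.185 to 0.415) and in phyAB and Col-0 shoots at 27 °C (0.16 to 0.369); a replicate block changed no member call in those 3 comparisons. Named genes of the wider lists are the 2 with the largest changes past the threshold per comparison, those past it in a contrast of responses with a log2 difference of at least 1, and, for 7 members, the 2 genes with the highest correlation per organ. The members and lists were chosen with earlier results of these data known. Alternatives were DESeq2 1.42.0, its size factors, no filter, only the compared groups, a replicate block, plain CPM and leaving out libraries.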

Additional observations from a re-analysis of the deposited data

Results flagged for a closer look

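For 4 genes the response to 27 °C differed between phyAB and Col-0 shoots by the direct test of that difference (edgeR): AOC2 by 2.04 (adjusted p = 0.000196), AOC1 by 1.27 (adjusted p = 0.0186), AOS by 1.0 (adjusted p = 0.0101) and LOX3 by 0.75 (adjusted p = 0.0144), all on the log2 scale and all higher in phyAB. The calls for AOC2 and AOS held under every alternative tried, and those for AOC1 and LOX3 did not.

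For 6 genes the response differed between shoots and roots of the same genotype by the same kind of test. In phyAB the shoot response minus the root response was −1.74 for LOX4 (adjusted p = 0.0129) and −0.77 for JAZ1 (adjusted p = 0.0358). In hy5 it was −1.85 for LOX4 (adjusted p = 0.00604) and −1.11 for AOS (adjusted p = 6.37e-05). In Col-0 it was −2.49 for LOX4 (adjusted p = 0.000535), −1.92 for AOC1 (adjusted p = 0.0201), −1.32 for AOS (adjusted p = 9.34e-06), −1.30 for AOC2 (adjusted p = 0.0072) and −0.48 for OPR3 (adjusted p = 0.00902). Some of these calls were lost under alternatives: JAZ1 in phyAB in 9 of 20 and LOX4 in phyAB in 1 of 20. AOC1 in Col-0 was lost in 4 of 18 and AOC2 in Col-0 in 1 of 18.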

How the results depend on the processing

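No log2 fold change of the 10 genes that passed the test changed sign when refitted under the alternatives. Of the levels on plain CPM, OPR3 in Col-0 shoots against roots at 21 °C did change sign, at −0.43 against 0.33 with TMM factors. Of the 202 member comparisons, 76 passed the test, 53 of them under every alternative and 23 not. Some that did not pass in the main fit passed under an alternative. AOS in hy5 against Col-0 shoots at 27 °C did so by DESeq2 (adjusted p = 0.0359). LOX2 in phyAB against Col-0 shoots at 21 °C did so by edgeR with the compared libraries alone (adjusted p = 0.0115). The number of members past the threshold in phyAB shoots at 27 °C against 21 °C was 4, and 2 both by DESeq2 and without the phyAB shoot libraries numbered 3, an alternative added after seeing the data. For hy5 against Col-0 shoots at 27 °C it was 4, and 2 with only the compared libraries and 1 without the shoot libraries at 27 °C numbered 3, also added later. For the response of phyAB minus Col-0 in shoots it was 4, and 2 without those same libraries. For the response of shoots minus roots in phyAB it was 2, and 1 with only the compared libraries or without both phyAB root libraries numbered 3.

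Leaving out 1 library at a time, the number ran between 2 and 3 for phyAB shoots at 27 °C against 21 °C, 1 and 2 for hy5 against Col-0 shoots at 21 °C, 1 and 5 for them at 27 °C, 1 and 3 for phyAB against Col-0 roots at 21 °C, 3 and 6 for phyAB against Col-0 shoots at 21 °C, 0 and 1 for the response of hy5 minus Col-0 in roots, 0 and 2 for it in shoots, and 0 and 2 for shoots minus roots in phyAB. The cause of these moves was not tested. With the replicate block 3 member calls were gained (LOX2 in the response of phyAB minus Col-0 shoots, JAZ10 in Col-0 shoots and JAZ10 in hy5 roots) and 0 lost.

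Over all genes, the calls for the response of hy5 minus Col-0 numbered 84 in roots, and 238 by DESeq2, 147 with no filter and 172 with the replicate block; in shoots they numbered 1, and 30, 4 and 16. For phyAB minus Col-0 they numbered 20 in roots, and 155, 91 and 104, with 9 without both phyAB root libraries numbered 3; in shoots they numbered 706, and 1305 with the replicate block, 277 without the phyAB shoot libraries numbered 3 and 259 without the shoot libraries at 27 °C numbered 3. Without these last, hy5 against Col-0 shoots at 27 °C had 1274 calls in place of 2460. Root levels of LOX2, LOX3, LOX4, AOC1 and AOC2 rest on few reads, which limits what a root comparison of them can show. Levels moved by more than 1 SD in 81 of 120 cases on plain CPM.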
